A study of Mus musculus with 23 samples.

Results

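Collagens, the triple-helical proteins that make up most of the extracellular matrix of muscle, were read here as a gene family. Every gene whose symbol in the probe annotation was Col, a number, a and a number was taken: 36 of the 12393 genes measured, read by 58 probe sets. They were grouped by the structure of the protein into 9 fibrillar, 8 basement membrane, 9 fibril-associated and 10 other collagens. The brightest probe set stood for each gene, and 33 of the 36 reached a signal of 100 on at least 2 arrays and were tested among 11164 genes. Col9a2 and Col17a1 stayed below 100 on all 23 arrays and Col9a3 passed it on 1, so these were not tested.

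The study profiled gastrocnemius muscle, the large calf muscle, of mice lacking emerin or lamin A/C, the nuclear envelope proteins linked to Emery-Dreifuss muscular dystrophy, to follow staged degeneration and regeneration. The tissue was taken on days 0, 3 and 4 of an injection whose agent the labels do not name, and its RNA was read on 23 Affymetrix arrays. Emerin KO (knockout) mice gave 2 arrays on day 0 and 3 each on days 3 and 4. Lamin A/C KO mice gave 3 arrays on each day, and control mice gave 2 on each day. Day 0 muscle was not injected in emerin KO and control mice, whereas for the lamin A/C KO it is described as day 0 after injection. The titles call the controls those of the lamin A line, and 1 of the 2 day 4 controls is identified by its title alone. The labels give neither the alleles, strain, age and sex nor whether arrays came from separate animals, so a p-value measures the spread between these samples. No control of an emerin line was used here, so in the emerin KO comparisons the knockout and any background of its line cannot be told apart.

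As background, collagen chains assemble in threes in the endoplasmic reticulum, where prolines and lysines are hydroxylated, and fibrillar collagens are trimmed and cross-linked by lysyl oxidases outside the cell. Types I and III form the fibres of the connective tissue around and between myofibers, type V starts and limits fibril growth, type IV is the network of the basement membrane around each myofiber, and type VI links that membrane to the fibres. Most of these chains are made by fibroblasts and fibro-adipogenic progenitors, which multiply after muscle injury.

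The targeted genes were read first. Emd, which encodes emerin, had signals of 153 to 465 on emerin KO arrays and 587 to 830 on control arrays, which did not overlap. Its log2 difference did not pass the test on day 0 (-0.65 ± 0.30, adjusted p 0.274), whereas it did on day 3 (-1.57 ± 0.27, adjusted p 0.000474) and day 4 (-1.61 ± 0.27, adjusted p 0.00172). The brightest Lmna probe set, for lamin A/C, read 53.0 to 109 on lamin A/C KO arrays and 857 to 4119 on control arrays. A second Lmna probe set overlapped between these groups on day 0, at 435 to 791 in lamin A/C KO and 588 to 688 in control muscle. It lay apart on day 3, at 902 to 1039 in lamin A/C KO and 2305 to 2316 in control muscle. On day 4 it read 620 to 733 in lamin A/C KO and 1893 to 2135 in control muscle. The other 2 Lmna probe sets read higher after injection in lamin A/C KO muscle. One averaged 390 in lamin A/C KO and 21.0 in control muscle on day 3, and 247 in lamin A/C KO and 39.7 in control muscle on day 4, and the other averaged 461 in lamin A/C KO and 195 in control muscle on day 3. Acta1, the skeletal muscle actin, read 22915 to 33103 on all day 0 arrays. All 11 measured myofiber markers fell on days 3 and 4 in each genotype, where 14.2% to 22.2% of all genes fell. The ratio of the 3' to the 5' Gapdh control probe set, a measure of RNA integrity, was 3.62 to 6.09 in emerin KO muscle on day 3 and 2.89, 1.40 and 5.30 on day 4. Every other array lay between 0.822 and 1.64. On day 3 every emerin KO array lay above all arrays of the other genotypes, so the ratio and that group cannot be told apart. The part of the ratio in the day 3 and day 4 differences of the emerin KO was not tested beyond the alternatives given beside them. In whole muscle, fewer cells of a type and less RNA per cell cannot be told apart.

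Upstream sequence was available for 27 of the 36 genes as windows of 250 bases before an annotated start (RefSeq, GRCm38.p6). The 4 windows below lie next to the annotated start of a gene that the results return to. Type I and III chains Col1a2 and Col3a1 were lower in emerin KO than in control muscle on day 0. At their brightest probe sets they did not rise after injection in control or lamin A/C KO muscle. The type VI chain Col6a1 rose in all 3 genotypes by day 4, and the short-chain collagen Col8a1 rose in control and emerin KO muscle. Capitals mark the letters CCAAT (the box bound by NF-Y), GGGCGG (the box bound by Sp1) and TATAAA or their reverse complements, and each window is written 5′ to 3′ on the strand of its gene. Col1a2 lies on chr6:4505368-4505617 (plus strand), Col3a1 on chr1:45311288-45311537 (plus strand), Col6a1 on chr10:76726045-76726294 (minus strand) and Col8a1 on chr16:57754738-57754987 (minus strand).
Col1a2: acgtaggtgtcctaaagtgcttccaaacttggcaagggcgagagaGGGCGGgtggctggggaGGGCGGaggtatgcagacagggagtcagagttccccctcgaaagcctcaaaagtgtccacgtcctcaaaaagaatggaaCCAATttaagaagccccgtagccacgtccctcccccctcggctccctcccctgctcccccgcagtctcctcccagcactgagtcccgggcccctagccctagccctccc
Col3a1: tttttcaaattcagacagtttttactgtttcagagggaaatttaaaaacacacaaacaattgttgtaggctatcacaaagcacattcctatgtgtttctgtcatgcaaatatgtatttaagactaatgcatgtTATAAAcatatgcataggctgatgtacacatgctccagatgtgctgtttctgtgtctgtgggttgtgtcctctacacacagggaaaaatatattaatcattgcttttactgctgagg
Col6a1: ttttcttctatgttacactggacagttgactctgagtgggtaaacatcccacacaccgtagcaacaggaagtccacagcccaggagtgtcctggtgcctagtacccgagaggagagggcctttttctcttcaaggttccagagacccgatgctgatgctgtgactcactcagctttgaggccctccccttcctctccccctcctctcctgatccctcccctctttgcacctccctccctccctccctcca
Col8a1: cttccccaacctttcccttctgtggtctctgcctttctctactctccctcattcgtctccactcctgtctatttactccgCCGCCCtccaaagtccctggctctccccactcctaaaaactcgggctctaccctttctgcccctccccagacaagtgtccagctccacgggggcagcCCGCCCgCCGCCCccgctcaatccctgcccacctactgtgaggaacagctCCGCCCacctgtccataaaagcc
Over all 30 collagen windows, CCAAT was found in 12 (40.0%), against 33.8% of 32851 windows of the same length in the RefSeq table. GGGCGG was found in 16 (53.3%, against 32.7%) and TATAAA in 5 (16.7%, against 12.4%). The Col6a1 window holds none of the 3 and the Col8a1 window holds GGGCGG or its complement only, and a match is only a run of letters, not a bound site. Several collagen genes are neighbours: Col3a1 and Col5a2 lie 24624 bases apart on chromosome 1, and Col6a1 and Col6a2 lie 85161 bases apart on chromosome 10. Col4a1 and Col4a2 overlap by 85 bases in opposite directions on chromosome 8.

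Signals of the fibrillar genes spanned the range of the arrays. Col1a1 and Col1a2, the chains of type I collagen, read 8471 to 27909 and 10174 to 29986, and Col3a1, the type III chain, read 5813 to 16628. Of the type V chains, Col5a1 and Col5a2 read 1057 to 12279 and 1386 to 10798, and Col5a3 read 800.3 to 4297. The type XI chains Col11a1 and Col11a2 and the type II chain Col2a1, best known from cartilage, read 529 to 2771, 139.5 to 944 and 80.2 to 757. Among basement membrane genes, Col4a1 and Col4a2, the main type IV chains, read 3342 to 7664 and 1661 to 3248, whereas the alternative type IV chains Col4a3, Col4a4, Col4a5 and Col4a6 never passed 509. Col15a1 and Col18a1, the multiplexins, read 621 to 1534 and 492 to 1957. The type VI chains Col6a1, Col6a2 and Col6a3 read 2233 to 9532, 4403 to 11704 and 1773 to 8010.

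The fibril-associated Col12a1, Col14a1 and Col16a1, which sit on the surface of fibrils, read 53.5 to 1687, 463 to 3864 and 248 to 1849.5, and Col9a1, Col19a1, Col20a1 and Col22a1 stayed at or below 511. Col8a1, a short-chain network collagen of vessels, read 308 to 2863. Col7a1, the anchoring fibril collagen, the transmembrane Col13a1 and Col25a1, and Col26a1 stayed at or below 502. Col10a1, known from growth plate cartilage, reached the minimum on 2 lamin A/C KO day 0 arrays only, at 177 and 116, so it entered the tests only through the group where it was high. These ranges show which chains the arrays could follow. Signals of different probe sets do not rank the amounts of their transcripts.

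**Figure D1:**
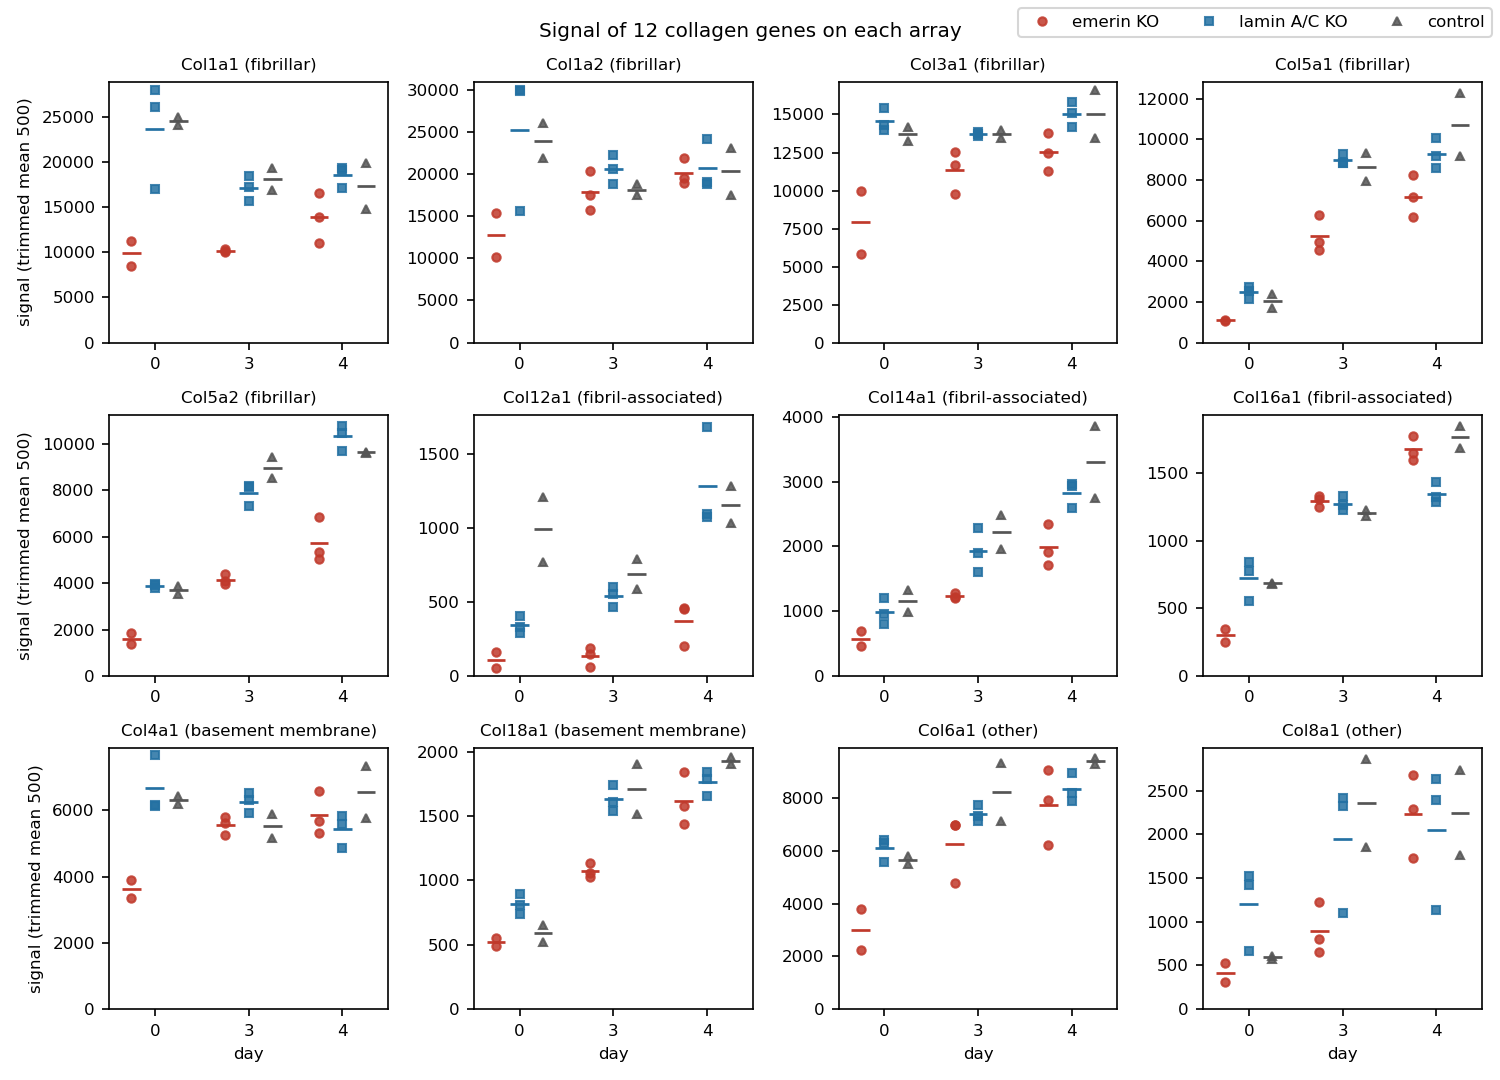
Signal (vertical axis, each array scaled to a trimmed mean of 500, axis starting at 0) of 12 collagen genes on days 0, 3 and 4 (horizontal axis), with a point per array and a bar at the mean of 2 or 3 arrays. On day 0 the emerin KO arrays lay below both other genotypes for Col1a1, Col1a2, Col3a1, Col5a1, Col5a2, Col12a1, Col14a1, Col16a1, Col4a1, Col18a1 and Col6a1, apart from a control array of Col18a1 at 523.

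The first question was how the collagens of emerin KO muscle compared with control muscle on day 0. In emerin KO muscle 13 were lower and 0 were higher (limma, adjusted p under 0.05): 6 of 9 fibrillar genes, 2 of 8 basement membrane genes, 3 of 7 fibril-associated genes and 2 of 9 others. That is 39.4% of the 33 tested, against a background of 2.03% of all genes lower and 3.26% in either direction. The median difference of the 33 was -0.60 on the log2(signal + 32) scale, against 0.09 over all genes tested. Median scaling in place of the trimmed mean shifts the all-gene median by -0.12 and left 13 lower.

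Among the fibrillar genes, Col1a1 read 11250.2 and 8471 in emerin KO muscle and 24957 and 24072 in control muscle, a log2 difference of -1.33 ± 0.21 (SE, adjusted p 0.000727). Col5a2 read 1837 and 1386 in emerin KO muscle and 3879.9 and 3518 in control muscle, a difference of -1.19 ± 0.15 (adjusted p 6.7e-05). At the brightest probe set of both genes every knockout array lay below every control array, and the group difference was 2.51-fold and 2.29-fold on this scale. The second Col1a1 probe set overlapped, at 4294 and 3140 in emerin KO and 4222 and 6528 in control muscle. Col1a2, the partner chain of Col1a1, read 15430.1 and 10174 in emerin KO muscle and 26014 and 21878 in control muscle (-0.93 ± 0.25, adjusted p 0.0449). Col3a1 read 9999 and 5813 in emerin KO muscle and 14205 and 13239 in control muscle (-0.84 ± 0.19, adjusted p 0.012). Emerin KO replicate 2 was well below replicate 1 in both genes, and neither gene's groups overlapped. Col5a1 read 1057 and 1126 in emerin KO muscle and 1726 and 2414 in control muscle (-0.89 ± 0.19), and Col2a1 253 and 266 in emerin KO muscle and 757 and 648 in control muscle (-1.33 ± 0.26). Of the others, Col11a1 (-1.02 ± 0.33, adjusted p 0.101), Col11a2 (-1.29 ± 0.39, adjusted p 0.0746) and Col5a3 (-0.25 ± 0.19) did not pass. All 9 fibrillar differences were negative, but they were read on the same arrays, so their signs are not separate observations.

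Col12a1 had the largest difference of the family. It read 159.8 and 53.5 in emerin KO muscle and 772 and 1212 in control muscle, a log2 difference of -2.96 ± 0.40 (adjusted p 0.000123), or 7.80-fold lower on this scale. One of the emerin KO arrays was below the minimum signal of 100. Col16a1 read 248 and 349 in emerin KO muscle and 681 and 685 in control muscle (-1.13 ± 0.17, adjusted p 0.000381), and Col14a1 read 689 and 463 in emerin KO muscle and 985 and 1327 in control muscle (-0.98 ± 0.23, adjusted p 0.017). The groups of these 3 fibril-associated genes did not overlap. The dim Col9a1, Col19a1, Col20a1 and Col22a1 did not pass the test.

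Both main basement membrane chains were lower. Col4a1 read 3895 and 3342 in emerin KO muscle and 6196 and 6423 in control muscle (-0.80 ± 0.16, adjusted p 0.00407). Col4a2 read 1754 and 1682 in emerin KO muscle and 3248 and 2913 in control muscle (-0.83 ± 0.14, adjusted p 0.000908). The paired chains thus differed by similar amounts with no overlap of the groups, whereas Col15a1 (-0.40 ± 0.23) and Col18a1 (-0.16 ± 0.16) did not pass. Of type VI, Col6a1 read 3797 and 2233 in emerin KO muscle and 5800.2 and 5485 in control muscle (-0.95 ± 0.22, adjusted p 0.0155), and Col6a2 read 4679 and 4403 in emerin KO muscle and 8691 and 7931 in control muscle (-0.87 ± 0.16, adjusted p 0.00201). Col6a3 read 2686 and 1773 in emerin KO muscle and 3829 and 2904 in control muscle, which did not overlap either, but its difference of -0.60 ± 0.18 did not pass (adjusted p 0.07).

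These day 0 calls rest on 2 arrays a group and on the spread shared by all 9 groups: with only these 2 groups in the fit, 0 of 33 collagens passed, and 6 of all genes tested did. Without emerin KO day 0 replicate 2, the lower of the 2 arrays in most of these genes, 7 passed, and without control day 0 replicate 2, 8 passed. Col12a1, Col16a1, Col1a1, Col4a2, Col5a2 and Col6a2 passed with any 1 array left out. Groups of 2 arrays can lie apart without a real difference, and the share of all genes that did so is not given. Here and below, non-overlap therefore describes the values and is no further test.

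**Figure D2:**
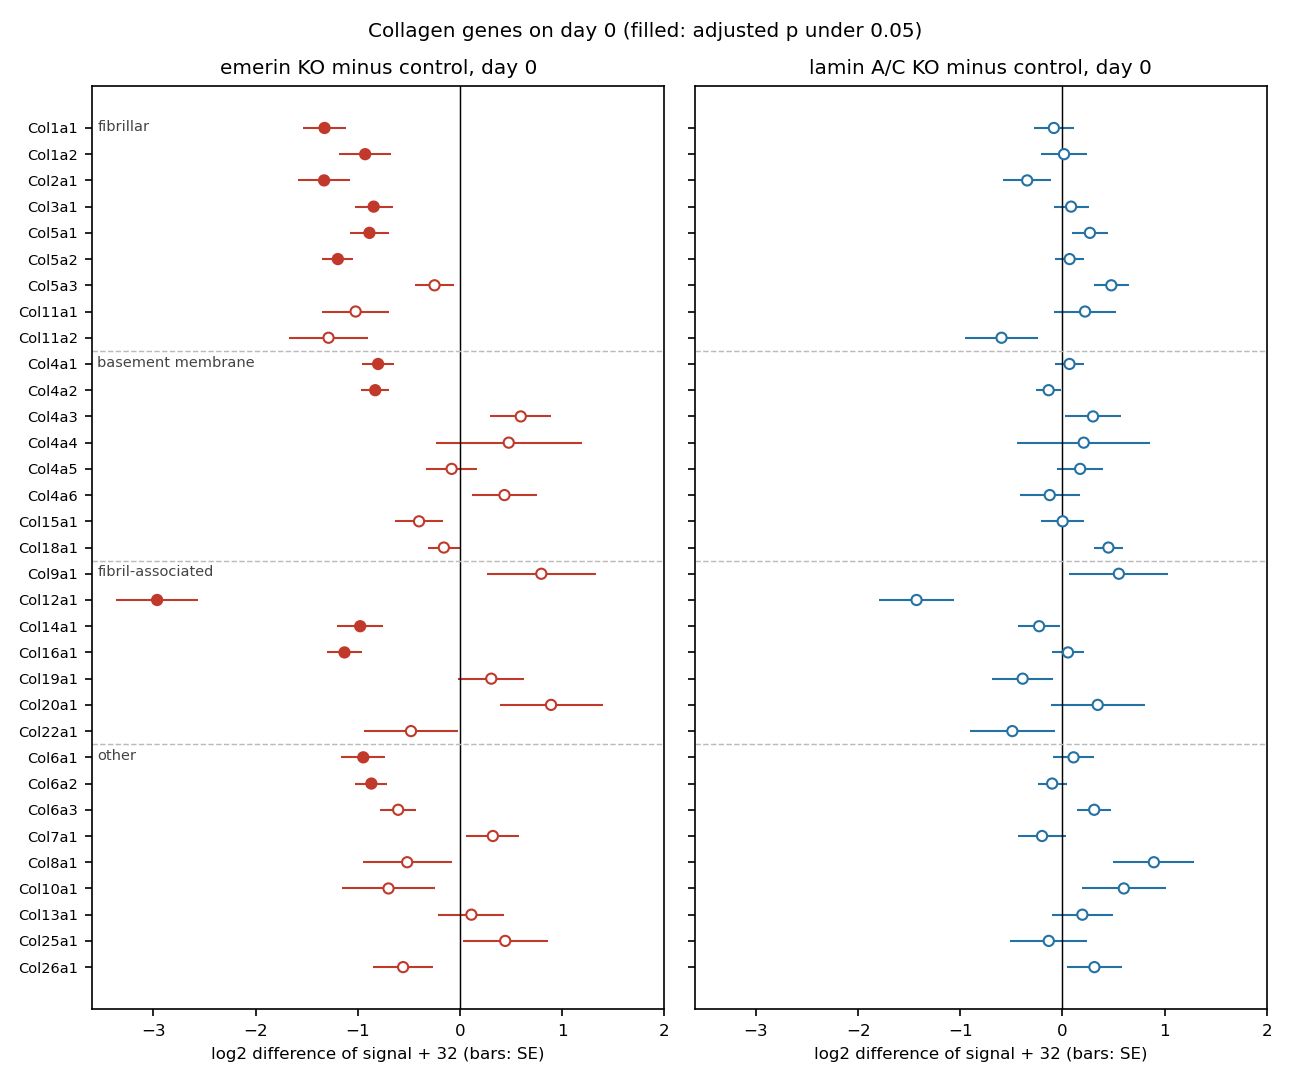
Log2 difference of signal + 32 (horizontal axis, bars SE) of 33 collagen genes (rows, grouped by class) on day 0, for emerin KO minus control (left) and lamin A/C KO minus control (right), with filled points at an adjusted p under 0.05. On the left 13 genes are filled and all lie below 0, and on the right none is filled, with Col12a1 at -1.43.

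Some genes that handle collagen were lower too. Of 24 measured genes of collagen processing and cross-linking, 5 were lower and 0 higher in emerin KO than in control muscle on day 0, against 2.03% lower and 3.26% in either direction among all genes: Lox, a lysyl oxidase that cross-links fibrils (-1.50 ± 0.28), Crtap, a partner of prolyl 3-hydroxylase (-1.38 ± 0.19), Serpinh1, the collagen chaperone (-0.99 ± 0.18), Ppib, a prolyl isomerase (-0.91 ± 0.18), and Pcolce, an enhancer of propeptide cleavage (-0.78 ± 0.16). Of 13 basement membrane partners, the laminin chains Lamb1 (-0.92 ± 0.18) and Lama4 (-0.66 ± 0.17) were lower, and of 11 collagen receptors 0 passed, with 5 at an unadjusted p under 0.05. The median of the processing list was -0.36, against 0.09 over all genes.

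Some cell markers were lower as well, where 2.03% of all genes were lower and 3.26% passed in either direction. Of 14 fibroblast and fibro-adipogenic progenitor markers, Postn (-1.92 ± 0.25), Vim (-1.07 ± 0.16), Acta2 (-0.94 ± 0.25) and Thy1 (-0.87 ± 0.21) were lower and 0 were higher, and the summed signal of the 14 was 41230.2 to 50317 in emerin KO muscle and 51484 to 55133 in control muscle. Of 11 tendon and cartilage markers, Kera (-2.08 ± 0.29) and Tnmd (-1.50 ± 0.37) were lower, with a summed signal of 12755 to 17254 in emerin KO muscle and 25386 to 25708 in control muscle. Of 5 Schwann cell and nerve genes, Pmp22 was lower (-1.27 ± 0.28). None of 11 myofiber, 12 macrophage and 10 endothelial markers passed, with 0, 1 and 2 at an unadjusted p under 0.05 in that order. The part of fibroblast or tendon content in the collagen differences was not tested.

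On day 3, 9 of 33 collagens (27.3%) were lower in emerin KO than in control muscle and 0 were higher, against a background of 8.92% lower and 16.3% in either direction. Col12a1 read 189, 145 and 60.6 in emerin KO muscle and 588 and 789 in control muscle (-2.22 ± 0.37, adjusted p 0.000345). Col5a2 read 4106, 4382 and 3959.6 in emerin KO muscle and 8526 and 9440.3 in control muscle (-1.11 ± 0.14, adjusted p 2.93e-05). The groups lay far apart in both genes. Col1a1 read 10402, 9995 and 10162 in emerin KO muscle and 16915 and 19299 in control muscle (-0.82 ± 0.20, adjusted p 0.00573). The second Col1a1 probe set overlapped there, at 4586, 5429 and 3795 in emerin KO muscle and 4232 and 5651 in control muscle. Col8a1 read 1221, 802 and 649.6 in emerin KO muscle and 2863 and 1852 in control muscle (-1.39 ± 0.40, adjusted p 0.0192). Col11a1 (-0.89 ± 0.30), Col14a1 (-0.83 ± 0.21), Col5a1 (-0.72 ± 0.17), Col4a5 (-0.69 ± 0.23) and Col18a1 (-0.65 ± 0.14) were lower too. Col3a1 (-0.28 ± 0.17, adjusted p 0.314), Col4a1 (0.01 ± 0.14, adjusted p 0.981) and Col6a1 (-0.41 ± 0.20, adjusted p 0.187) did not pass. With the Gapdh ratio as a covariate 0 passed, and without control day 3 replicate 1 or 2, 4 or 5 passed.

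The processing genes on day 3 had 9 lower and 1 higher of 24, against 8.92% lower and 16.3% in either direction among all genes. Lox (-1.82 ± 0.25), Plod2, a lysyl hydroxylase (-1.34 ± 0.19), and the COPII coat genes Sec24d (-1.24 ± 0.22) and Sec23a (-1.24 ± 0.20), which carry procollagen out of the endoplasmic reticulum, were the largest, and Plod1 was higher (0.40 ± 0.13). Of the fibroblast markers, Postn (-2.87 ± 0.23), Lum (-1.66 ± 0.24) and Fap (-0.70 ± 0.16) were lower and Gsn was higher (1.27 ± 0.20). The summed fibroblast signal was 50945 to 62874 in emerin KO muscle and 70627 to 70866.0 in control muscle. Of 11 myofiber markers Mylpf, Tnni2 and Tnnt3 were lower, and of 12 macrophage markers Csf1r and Cd68 were higher and Lyz2 was lower. Their part in the collagen differences was not tested.

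On day 4, 6 of 33 (18.2%) were lower in emerin KO than in control muscle and 0 were higher, against a background of 3.29% lower and 5.87% in either direction. Col12a1 read 454, 463 and 203 in emerin KO muscle and 1283 and 1032 in control muscle (-1.62 ± 0.37, adjusted p 0.0133). Col11a1 read 1348, 576 and 1596 in emerin KO muscle and 2324 and 2771 in control muscle (-1.21 ± 0.30, adjusted p 0.0228). Emerin KO replicate 2 was the lowest of that gene and no arrays overlapped in either. Col22a1, found at the junction of muscle and tendon, read 25.2, 25.7 and 79.1 in emerin KO muscle and 215 and 143 in control muscle (-1.54 ± 0.42, adjusted p 0.0338). Its emerin KO signals were all below the minimum. Col2a1 (-1.19 ± 0.23), Col5a2 (-0.76 ± 0.14) and Col14a1 (-0.71 ± 0.21) were lower as well. Col1a1 (-0.32 ± 0.20, adjusted p 0.363), Col3a1 (-0.26 ± 0.17), Col4a1 (-0.16 ± 0.14) and Col6a1 (-0.30 ± 0.20) did not pass.

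The day 4 calls depended on single arrays and settings: leaving out control day 4 replicate 1 left 0 and leaving out replicate 2 left 2, and there were 2 without the 5 arrays of a Gapdh ratio over 2 (which leaves 1 emerin KO array on day 4), 2 with that ratio as a covariate, and 1 with only these groups in the fit. Col12a1, Col14a1 and Col5a2 were lower in emerin KO than in control muscle on all 3 days (9.09% of the collagens tested, against 0.403% of all genes). The second Col14a1 probe set overlapped on day 3, at 807, 669 and 643 in emerin KO and 735 and 861 in control muscle. It lay apart on day 4, at 1086, 873 and 657 in emerin KO and 1139 and 1237 in control muscle. Of all genes, 3.29% were lower and 5.87% passed in either direction on day 4. Of the 24 processing genes Sec24d (-0.83 ± 0.22) and Plod2 (-0.66 ± 0.19) were lower on that day, and of the fibroblast markers Postn (-1.43 ± 0.23), Lum (-1.39 ± 0.24) and Fap (-0.60 ± 0.16). The 3 days share no control arrays, but the differences among days are tested only by the interactions given further on.

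**Figure D3:**
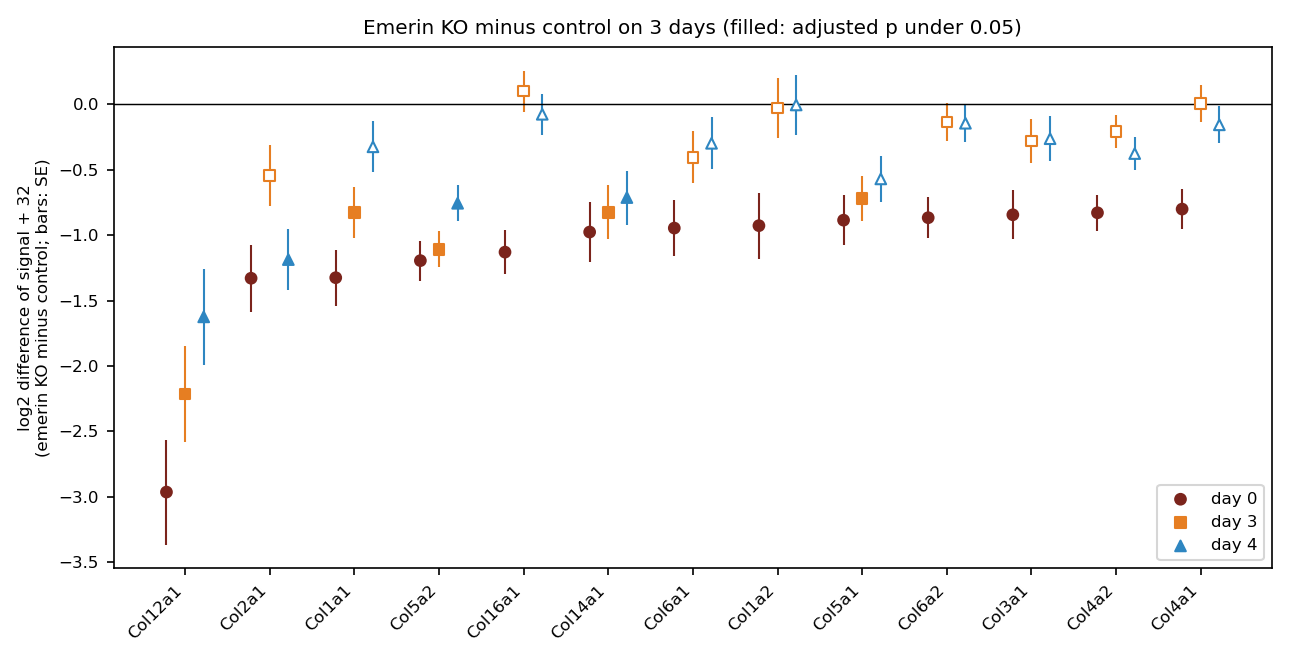
Log2 difference of signal + 32 between emerin KO and control muscle (vertical axis, bars SE) on days 0, 3 and 4 for the 13 collagen genes (horizontal axis) that were lower on day 0, with filled symbols at an adjusted p under 0.05. Col12a1, Col5a2 and Col14a1 are filled on all 3 days, whereas Col16a1, Col6a1, Col1a2, Col6a2, Col3a1, Col4a2 and Col4a1 are filled on day 0 only.

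Set against the lamin A/C KO, emerin KO muscle had 18 of 33 collagens lower (54.5%) and 0 higher on day 0, against a background of 4.18% lower and 6.3% in either direction. All 13 genes lower than in control were among the 18, in comparisons that share the emerin KO arrays. They were 39.4% of the collagens tested, against 1.53% of all genes lower in both comparisons. Col1a1 read 11250.2 and 8471 in emerin KO muscle and 26047, 27909 and 17017 in lamin A/C KO muscle (-1.24 ± 0.20, adjusted p 0.000283). Col5a1 read 1057 and 1126 in emerin KO muscle and 2165, 2515 and 2759.8 in lamin A/C KO muscle (-1.16 ± 0.17, adjusted p 0.000164). Neither gene's groups overlapped, and 1 lamin A/C KO array was well below the other 2 for Col1a1. Col12a1 (-1.54 ± 0.37), Col8a1 (-1.41 ± 0.40), Col5a2 (-1.27 ± 0.14), Col11a1 (-1.24 ± 0.30), Col16a1 (-1.18 ± 0.16), Col6a1 (-1.05 ± 0.20), Col2a1 (-0.98 ± 0.23), Col1a2 (-0.94 ± 0.23), Col3a1 (-0.93 ± 0.17) and Col6a3 (-0.92 ± 0.16) were lower too. Col4a1 (-0.87 ± 0.14, adjusted p 0.000407), Col6a2, Col14a1, Col5a3, Col4a2 and Col18a1 completed the set. Without emerin KO day 0 replicate 2, 8 passed, and with only these 2 groups in the fit, 10 did.

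On day 3, 6 collagens were lower in emerin KO than in lamin A/C KO muscle and 0 higher (18.2%, against 5.99% of all genes lower and 9.95% in either direction): Col12a1 (-1.89 ± 0.33), Col5a2 (-0.92 ± 0.12), Col5a1 (-0.78 ± 0.15), Col1a1 (-0.74 ± 0.17), Col14a1 (-0.62 ± 0.18) and Col18a1 (-0.59 ± 0.13). The second Col14a1 probe set read 0.03 there. That of Col1a1 overlapped, at 4586, 5429 and 3795 in emerin KO and 3763, 5762 and 4857 in lamin A/C KO muscle. Col3a1 (-0.28 ± 0.15), Col4a1 (-0.17 ± 0.13) and Col6a1 (-0.26 ± 0.18) did not pass. With the Gapdh ratio as a covariate 0 passed. On day 4, 3 were lower and 2 higher (15.2%, against 16.4% of all genes in either direction, 8.4% higher and 8.02% lower), a share near the background. Col12a1 (-1.75 ± 0.33), Col5a2 (-0.85 ± 0.12) and Col2a1 (-0.77 ± 0.21) were lower, and Col4a3, an alternative type IV chain (1.04 ± 0.24), and Col5a3 (0.50 ± 0.15) were higher. Col1a1 (-0.44 ± 0.17), Col3a1 (-0.27 ± 0.15), Col4a1 (0.11 ± 0.13) and Col6a1 (-0.12 ± 0.18) did not pass. Without the high-ratio arrays, which leaves 1 emerin KO array on day 4 that is assumed to vary like the other groups, 2 genes passed, and of the 5 above only Col2a1 still did. Under that ratio as a covariate 0 passed, and 3 genes passed without emerin KO day 4 replicate 3 or without lamin A/C KO day 4 replicate 3. Col12a1 and Col5a2 were lower than in lamin A/C KO muscle on all 3 days (6.06% of the collagens tested, against 0.717% of all genes).

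Lamin A/C KO muscle had no collagen past the test against control muscle on day 0, 3 or 4, where 0.896%, 0.0269% and 0.0448% of all genes passed. On day 0, 4 collagens had an unadjusted p under 0.05, on day 3, 2, and on day 4, 5. The share of all genes at that threshold is not given, so these counts are a description only. Col12a1 read 334, 290.0 and 403 in lamin A/C KO muscle and 772 and 1212 in control muscle on day 0, without overlap, and its difference of -1.43 ± 0.37 had an adjusted p of 0.0703. Col1a1 read 26047, 27909 and 17017 in lamin A/C KO muscle and 24957 and 24072 in control muscle, and its arrays overlapped. The differences of Col1a1 on days 0, 3 and 4 were -0.08 ± 0.20, -0.08 ± 0.20 and 0.11 ± 0.20. Those of Col3a1 were 0.09 ± 0.17, 0.00 ± 0.17 and 0.00 ± 0.17, those of Col4a1 0.07 ± 0.14, 0.18 ± 0.14 and -0.27 ± 0.14, and those of Col6a1 0.11 ± 0.20, -0.14 ± 0.20 and -0.17 ± 0.20. The day 0 count was 1 without emerin KO day 0 replicate 1 or 2, emerin KO day 3 replicate 3 or emerin KO day 4 replicate 3, arrays outside the comparison that change the shared spread. Of the processing genes Plod2 was higher on day 0 (0.85 ± 0.19), and S100a4 (2.20 ± 0.23), Lgals3 (1.55 ± 0.23) and Lyz2 (0.79 ± 0.17) were higher among fibroblast and macrophage markers.

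The second question was how collagens changed after injection. Col5a1, Col5a2, Col5a3, Col6a3, Col14a1, Col16a1 and Col18a1 rose on both days in all 3 genotypes: all type V chains, one type VI chain, a pair of fibril-associated collagens and a basement membrane multiplexin. They were 21.2% of the 33 collagens, and 1413 of all 11164 genes (12.7%) did the same. At their brightest probe sets Col1a1, Col1a2 and Col3a1 did not rise in control or lamin A/C KO muscle on either day. The second Col3a1 probe set read 2716 and 2646 in control muscle on day 0. It read 4263 and 4435 there on day 3, and 4542 and 5142 on day 4. In lamin A/C KO muscle it read 2197, 2379 and 2892 on day 0 and 3060, 3429 and 2503 on day 3. By day 4 it read 5564, 5132 and 5385 there, so all day 4 arrays lay above day 0 in both genotypes. Col22a1 and Col4a6 fell on day 3 and Col2a1 on day 4 in all 3 genotypes (6.06% and 3.03% of the collagens, against 11.3% and 10.4% of all genes).

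In emerin KO muscle 12 collagens rose and 3 fell by day 3 (45.5%, against 46.1% of all genes, 23.9% higher and 22.2% lower), and 17 rose and 3 fell by day 4 (60.6%, against 44.2%, 23.5% higher and 20.8% lower). Col5a1 read 1057 and 1126 on day 0, 4932, 6275 and 4567 on day 3 and 6156, 7167 and 8228 on day 4 (2.22 ± 0.17 by day 3 and 2.67 ± 0.17 by day 4). Col16a1 read 248 and 349 on day 0, 1246, 1309 and 1331 on day 3 and 1649.7, 1599 and 1773 on day 4 (2.02 ± 0.16 and 2.38 ± 0.16). No array of either later day overlapped day 0 in either gene, and by day 3 they were 4.67-fold and 4.06-fold higher on this scale. By day 3 the others were Col5a3 (1.78 ± 0.17), Col5a2 (1.36 ± 0.14), Col6a3 (1.14 ± 0.16), Col14a1 (1.08 ± 0.21), Col6a1 (1.07 ± 0.20), Col8a1 (1.03 ± 0.40), Col18a1 (0.99 ± 0.14), Col6a2 (0.97 ± 0.14), Col4a1 and Col3a1, and Col22a1 (-2.15 ± 0.42), Col4a6 (-1.01 ± 0.29) and Col4a5 were lower. By day 4 Col8a1 (2.36 ± 0.40), Col5a3 (1.86 ± 0.17), Col5a2 (1.82 ± 0.14), Col14a1 (1.75 ± 0.21), Col12a1 (1.58 ± 0.37), Col18a1 (1.57 ± 0.14), Col6a3 (1.47 ± 0.16), Col6a1 (1.38 ± 0.20) and Col6a2 (1.11 ± 0.14) were higher. Col11a1, Col26a1, Col3a1, Col4a1, Col1a2 and Col1a1 were higher by 0.48 to 0.85. Col22a1 (-1.96 ± 0.42), Col4a6 and Col2a1 were lower.

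The type I rise of the emerin KO was small. Col1a1 read 11250.2 and 8471 on day 0, 10402, 9995 and 10162 on day 3 and 13917, 16577 and 11036 on day 4, with 1 day 4 array inside the range of day 0 (0.48 ± 0.20 by day 4, adjusted p 0.0495). Without emerin KO day 0 replicate 2, 12 collagens passed in place of 20 by day 4. The rise of Col11a1 (0.85 ± 0.30) became -0.02 without the high-ratio arrays, and its other probe set read -0.59.

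In lamin A/C KO muscle 7 rose and 7 fell by day 3 (42.4%, against 43% of all genes, 23.4% higher and 19.6% lower), and 10 rose and 6 fell by day 4 (48.5%, against 39.2%, 21% higher and 18.2% lower). Col10a1 is among those that fell on both days, and since it was measured only through its day 0 arrays in this genotype, its falls are a description. Without it, 7 rose and 6 fell of 32 by day 3 (40.6%), and 10 rose and 5 fell by day 4 (46.9%). Col5a1 read 2165, 2515 and 2759.8 on day 0, 8830.0, 9257 and 8822 on day 3 and 8570.1, 9193 and 10041 on day 4 (1.85 ± 0.15 and 1.89 ± 0.15). Col12a1 read 334, 290.0 and 403 on day 0, 601, 466 and 555 on day 3 and 1099, 1687 and 1074 on day 4 (0.62 ± 0.33, not past the test, and 1.80 ± 0.33). Both genes were above day 0 on all later arrays. By day 3 Col5a3 (1.31 ± 0.15), Col5a2 (1.02 ± 0.12), Col18a1 (0.98 ± 0.13), Col14a1 (0.95 ± 0.18), Col16a1 (0.81 ± 0.14) and Col6a3 were higher, and Col22a1 (-1.78 ± 0.37), Col10a1 (-1.26 ± 0.37), Col2a1 (-1.12 ± 0.21), Col11a2 (-1.01 ± 0.32), Col4a6 (-0.87 ± 0.26), Col4a5 (-0.58 ± 0.20) and Col1a1 (-0.44 ± 0.17) were lower. The Col1a1 fall became 0.07 under quantile normalization. By day 4 Col14a1 (1.51 ± 0.18), Col5a2 (1.40 ± 0.12), Col18a1 (1.09 ± 0.13), Col16a1 (0.89 ± 0.14), Col6a3 (0.79 ± 0.15), Col5a3, Col6a1 and Col6a2 were higher. Col22a1 (-1.32 ± 0.37), Col10a1 (-1.23 ± 0.37), Col2a1 (-0.997 ± 0.21), Col4a6 (-0.83 ± 0.26), Col4a5 and Col15a1 were lower.

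In control muscle 8 rose and 5 fell by day 3 (39.4%, against 34.3% of all genes, 20.1% higher and 14.2% lower), and 10 rose and 2 fell by day 4 (36.4%, against 33.8%, 19.5% higher and 14.3% lower). Col5a1 read 1726 and 2414 on day 0, 7934 and 9331 on day 3 and 9158 and 12279 on day 4 (2.06 ± 0.19 and 2.36 ± 0.19). Col18a1, the source of the fragment endostatin, read 656 and 523 on day 0, 1904 and 1516 on day 3 and 1957 and 1902 on day 4 (1.49 ± 0.16 and 1.67 ± 0.16). Neither gene overlapped between day 0 and the later days. By day 3 Col8a1 (1.91 ± 0.43), Col5a3 (1.41 ± 0.19), Col5a2 (1.27 ± 0.15), Col6a3 (0.93 ± 0.18), Col14a1 (0.93 ± 0.23) and Col16a1 (0.79 ± 0.17) were higher, and Col22a1 (-1.92 ± 0.46), Col11a2 (-1.09 ± 0.39), Col2a1 (-1.07 ± 0.26), Col4a6 (-0.90 ± 0.32) and Col4a2 were lower. By day 4 Col8a1 (1.84 ± 0.43), Col5a3 (1.64 ± 0.19), Col14a1 (1.48 ± 0.23), Col5a2 (1.38 ± 0.15), Col16a1 (1.33 ± 0.17), Col6a3 (1.24 ± 0.18), Col11a1 (1.04 ± 0.33, with -0.19 and adjusted p 0.733 at its other probe set) and Col6a1 (0.73 ± 0.22) were higher, and Col11a2 (-1.14 ± 0.39) and Col2a1 (-0.92 ± 0.26) were lower. In all 3 genotypes the collagen share called by day 3 was near that of all genes.

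**Figure D4:**
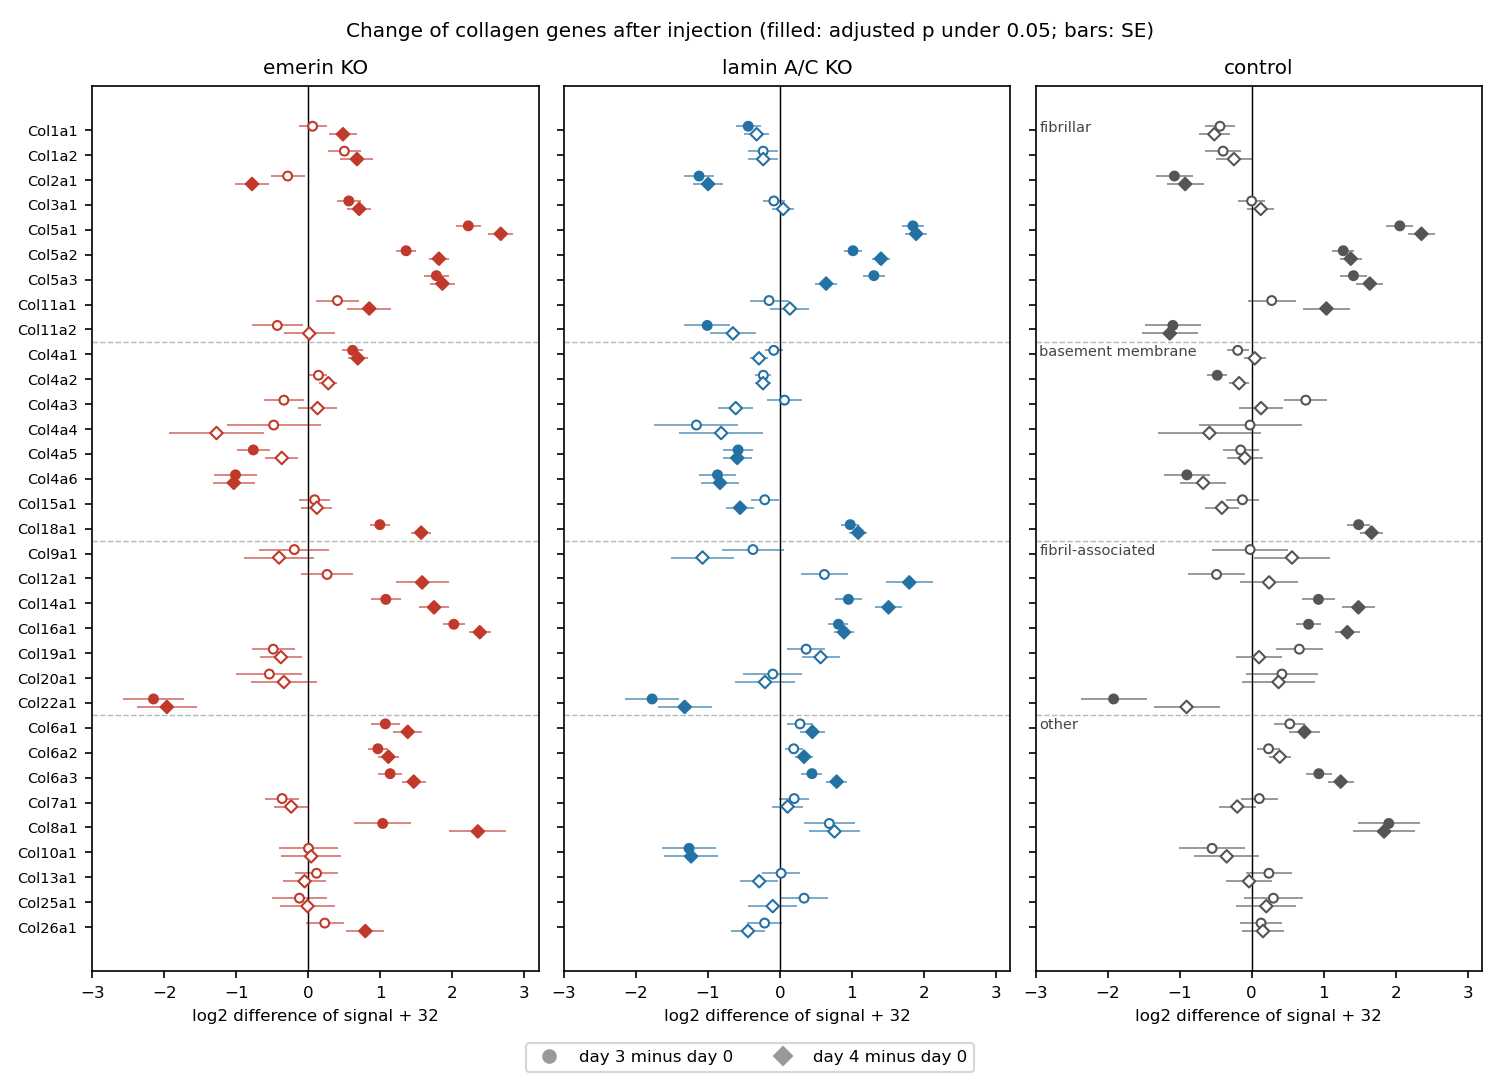
Log2 difference of signal + 32 (horizontal axis, bars SE) from day 0 to day 3 (circles) and day 4 (diamonds) of 33 collagen genes (rows, grouped by class) in emerin KO, lamin A/C KO and control muscle, with filled symbols at an adjusted p under 0.05. The 3 type V chains, Col18a1, Col14a1, Col16a1 and Col6a3 are filled and right of 0 in every panel, and Col22a1 is filled and left of 0 on day 3 in every panel.

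Of all genes, 23.9% rose and 22.2% fell in emerin KO muscle by day 3, 23.4% rose and 19.6% fell in lamin A/C KO muscle, and 20.1% rose and 14.2% fell in control muscle. Of 24 processing genes, 17 rose and 4 fell in emerin KO muscle, 16 rose and 1 fell in lamin A/C KO muscle, and 17 rose and 1 fell in control muscle by day 3. Plod2 rose by 2.60 ± 0.19 in emerin KO, 2.25 ± 0.17 in lamin A/C KO and 3.34 ± 0.21 in control muscle, and the lysyl oxidase Loxl3 by 1.68 ± 0.27, 2.27 ± 0.24 and 2.20 ± 0.30 in the same order. Pcolce2, an enhancer of procollagen cleavage, fell in all 3 (-1.08 ± 0.27, -1.13 ± 0.24 and -1.27 ± 0.29). Of 12 macrophage markers, 11, 12 and 12 rose by day 3 in the same order. Of 14 fibroblast markers, 8 rose in each genotype and 2, 3 and 1 fell. Of 11 tendon and cartilage markers, 2, 0 and 2 rose and 3, 5 and 4 fell. Their part in the collagen changes was not tested.

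Between day 3 and day 4, 1 collagen rose in emerin KO muscle (Col18a1, 0.57 ± 0.13, adjusted p 0.0248, against 0.958% of all genes higher and 1.17% in either direction), 1 fell in lamin A/C KO muscle (Col5a3, -0.66 ± 0.15, adjusted p 0.0245, against 0.752% lower and 2.04% in either direction) and 0 changed in control muscle (0.0448%), where 5 had an unadjusted p under 0.05. The Col18a1 call was lost without any 1 of the emerin KO day 3 arrays or without emerin KO day 4 replicate 2. The Col5a3 call was lost without lamin A/C KO day 3 replicate 2 or 3 or without any 1 of the lamin A/C KO day 4 arrays.

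Whether the change after injection differed from control was tested by the interaction. In emerin KO muscle, 2 of 33 collagens rose more than in control by day 3, against 1.42% of all genes higher and 2.64% in either direction. Col16a1 rose by 2.02 in emerin KO muscle and 0.79 in control muscle, an interaction of 1.23 ± 0.23 (adjusted p 0.0081). Col4a1 was 0.62 in emerin KO muscle and -0.19 in control muscle (0.81 ± 0.21, adjusted p 0.0427). By day 4 Col16a1 was the 1 collagen past the test (1.05 ± 0.23, adjusted p 0.0379, against 0.358% of all genes higher and 0.573% in either direction). Col16a1 read 1246, 1309 and 1331 in emerin KO and 1229 and 1181 in control muscle on day 3, so the levels lay close together on day 3, without overlap, and apart on day 0. With 1 array left out at a time the day 3 Col16a1 call held throughout, the Col4a1 call was lost in 13 of 23 cases and the day 4 Col16a1 call in 12, and with the Gapdh ratio as a covariate all 3 were lost. The other probe set of Col4a1 did not rise in emerin KO muscle by day 3 (-0.18).

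No collagen passed in the interaction of the emerin KO between days 3 and 4, with 2 at an unadjusted p under 0.05, or in those of the lamin A/C KO by day 3, by day 4 and between them, with 4, 5 and 3, where 0.0448%, 0.170%, 0.206% and 0.00896% of all genes passed the adjusted test. The unadjusted counts stand without the share of all genes and are a description only. Among the 33, Col12a1 had the largest lamin A/C KO interaction by day 4, and it did not pass (1.55 ± 0.52, adjusted p 0.379).

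Other probe sets of the same gene gave a check within the arrays. Of 111 pairs of a called collagen difference and another tested probe set of that gene, 100 had the same sign and 62 of these also passed in a fit over 19522 probe sets. On day 0 the second probe sets of Col3a1 (-1.94), Col5a2 (-1.29), Col1a2 (-1.19) and Col4a1 (-0.90) were lower in emerin KO than in control muscle with an adjusted p under 0.05, as were both others of Col5a1 (-0.89 and -0.62). Those of Col14a1 (-0.77), Col6a2 (-0.57) and Col1a1 (-0.51) had the same sign but did not pass. The second Col1a1 probe set averaged 3717 ± 816 in emerin KO and 5375 ± 1630.2 in control muscle (SD, n = 2 each). Its arrays overlapped, at 4294 and 3140 in emerin KO and 4222 and 6528 in control muscle. A dim second probe set of Col5a3 had the opposite sign in 6 of the 11 opposite pairs.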

How the data were processed

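RNA of 23 gastrocnemius samples was hybridised to Affymetrix arrays. The deposited values are intensities on a linear scale, made by the authors with MAS5 per the submitters' processing notes, which give no version. Signals were multiplied by a factor per array that set the trimmed mean at 500 (2% left out at each end), and of 22690 probe sets the 20380 with 1 gene symbol in the platform annotation were kept. The 691 with several symbols, 64 Affymetrix controls and 1555 without a gene were left out. The brightest probe set stood for a gene, genes with a signal of 100 on at least 2 arrays were tested, and 32 was added before log2. All 9 groups entered 1 limma fit (lmFit and eBayes with an intensity trend, 14 residual degrees of freedom), with Benjamini-Hochberg adjustment within each of 24 comparisons and a threshold of 0.05. Fold changes are on the log2(signal + 32) scale, which understates changes of dim genes. The number of arrays, 2 or 3 a group, limits the precision. Counts at an unadjusted p under 0.05 are given throughout without the share of all genes at that threshold, and are a description only.

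The members, the 9 gene lists, the tests and the alternatives were chosen with earlier results of these data known. Every collagen is named, all collagens past the test are named in each comparison with values for up to 12, and Col1a1, Col3a1, Col4a1 and Col6a1 are given in every genotype comparison. The 4 promoters were chosen after their values were seen. The fit was tested on simulated data of 11164 genes: for emerin KO against control on day 0 it recovered 40% of genes changed 2-fold and 91% of those changed 4-fold. It made 10 false calls there. The simulated noise was normal with the same spread in every group, as the fit assumes, so the simulation does not test that assumption. Alternatives were quantile and median scaling, a pseudocount of 1 or 100, all genes without a filter, averaged probe sets, no trend, a replicate block, only the compared groups, the Gapdh ratio, and each array left out. R 4.3.3, limma 3.58.1, data.table (version 1.17.8), Python 3.11.15, pandas 2.3.3 and matplotlib 3.10.9 were used.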

Additional observations from a re-analysis of the deposited data

Results flagged for a closer look

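The change after injection differed between emerin KO and control muscle in 3 collagen results, by the interaction term of the limma fit. Col16a1 rose more in emerin KO than in control muscle by day 3 (1.23 ± 0.23 on the log2 scale, adjusted p 0.0081) and by day 4 (1.05 ± 0.23, adjusted p 0.0379). All 3 emerin KO arrays of each later day lay above both emerin KO day 0 arrays. Col4a1 differed by 0.81 ± 0.21 by day 3 (adjusted p 0.0427), and its other probe set gave 0.08 (adjusted p 0.916). The Gapdh 3' to 5' ratio was 3.62 to 6.09 on emerin KO day 3 arrays and 0.822 to 1.64 in the other genotypes. On emerin KO day 4 arrays it was 1.40 to 5.30. With the ratio as a covariate none of the 3 passed, but on day 3 the ratio and the emerin KO group cannot be told apart. The part of the ratio in these differences was not tested beyond the covariate.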

How the results depend on the processing

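Of 152 collagen differences past the test, 150 remained past it in the same direction under quantile normalization, 139 under median scaling, 147 and 152 with pseudocounts of 1 and 100, 144 without a filter, 123 with the mean of all probe sets, 136 without the trend, 147 with the replicate block, and 111 each with only the compared groups and with the Gapdh ratio as a covariate. Deviations from the group means correlated at a mean r of 0.041 over 82 same-numbered pairs of arrays, 26 of them over 0.1 and the lowest at -0.301, and of -0.022 over 152 different-numbered pairs, 28 of them over 0.1, with 10 of 23 arrays closest to one of their own number. As not every same-numbered pair was over 0.1, the numbers were not taken to pair the samples. With the replicate block, counts moved to 3 for emerin KO day 4 minus day 3, 1 for lamin A/C KO against control muscle, day 0, and 1 for the emerin KO interaction by day 3, where Col4a1 no longer passed (0.82, adjusted p 0.0508).

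Counts in the other settings that moved by over 1.5 times were as follows. For emerin KO day 4 minus day 3 (1), median scaling, no trend, only the compared groups and the Gapdh covariate gave 0, and the mean of probe sets 2. For lamin A/C KO day 4 minus day 3 (1), median scaling, no trend and the covariate gave 0, and a pseudocount of 100, the mean of probe sets, only the compared groups and leaving out the high-ratio arrays gave 2. For emerin KO minus control, only the compared groups gave 0 on day 0 (13) and 1 on day 4 (6), the covariate 0 on day 3 (9) and 2 on day 4, and no high-ratio arrays 2 on day 4. For emerin KO minus lamin A/C KO, only the compared groups gave 10 on day 0 (18), the covariate 0 on day 3 (6) and day 4 (5), and no high-ratio arrays 2 on day 4. Against control on day 0, the lamin A/C KO count (0) became 1 with a pseudocount of 100, only the compared groups or no high-ratio arrays. For the emerin KO interaction by day 3 (2), median scaling, the mean of probe sets and no trend gave 1, and only the compared groups and the covariate 0. By day 4 (1), no trend, only the compared groups, the covariate and no high-ratio arrays gave 0. The causes were not tested.

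With each array left out, counts ranged from 11 to 16 and 12 to 20 by days 3 and 4 in emerin KO, 11 to 14 and 12 to 18 in lamin A/C KO, and 9 to 14 and 9 to 13 in control muscle. Between days 3 and 4 they ranged from 0 to 3, 0 to 2 and 0 to 0 in the same order. On days 0, 3 and 4 they ranged from 7 to 15, 4 to 10 and 0 to 8 for emerin KO minus control, 8 to 20, 4 to 7 and 3 to 6 for emerin KO minus lamin A/C KO, and 0 to 1, 0 to 0 and 0 to 0 between lamin A/C KO and control muscle. The emerin KO interactions by days 3 and 4 ranged from 1 to 4 and 0 to 2. Kept with any array left out were 6 of 13, 2 of 9 and 0 of 6 emerin KO minus control calls on days 0, 3 and 4.

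Values that changed sign were 2 past the test and others that passed no test. In emerin KO by day 4, Col11a1 was -0.0199 without the high-ratio arrays. In emerin KO against control on day 4, Col1a1 was 0.0345 with averaged probe sets and 0.0019 with the Gapdh covariate. Col4a1 was -0.33 to 0.014 with 1 array left out (sign turned without control day 4 replicate 2). In lamin A/C KO by day 3, Col1a1 was 0.0736 under quantile normalization. In lamin A/C KO against control on day 0, Col1a1 was -0.22 to 0.14 with 1 array left out (sign turned without lamin A/C KO day 0 replicate 3). Col3a1 was -0.015 with averaged probe sets. Col4a1 was -0.0022 under median scaling and -0.0358 to 0.12 with 1 array left out (sign turned without lamin A/C KO day 0 replicate 2). In lamin A/C KO against control on day 3, Col1a1 was 0.0412 under median scaling, 0.0384 with the Gapdh covariate and -0.18 to 0.0104 with 1 array left out (sign turned without control day 3 replicate 2). Col3a1 was -0.11 under quantile normalization, -0.27 with averaged probe sets, -0.0222 with the replicate block, -0.0021 with the Gapdh covariate and -0.0293 to 0.0306 with 1 array left out (sign turned without lamin A/C KO day 3 replicate 3 or control day 3 replicate 2). Col6a1 was -0.34 to 0.0514 with 1 array left out (sign turned without control day 3 replicate 2). In lamin A/C KO against control on day 4, Col1a1 was -0.10 to 0.32 with 1 array left out (sign turned without control day 4 replicate 1). Col3a1 was -0.0868 under quantile normalization, -0.0193 with the replicate block and -0.15 to 0.15 with 1 array left out (sign turned without lamin A/C KO day 4 replicate 3 or control day 4 replicate 1). In emerin KO against control on day 3, Col4a1 was -0.0262 under quantile normalization, -0.41 with averaged probe sets, -0.38 with the Gapdh covariate and -0.0866 to 0.10 with 1 array left out (sign turned without emerin KO day 3 replicate 1 or emerin KO day 3 replicate 2 or control day 3 replicate 1). In emerin KO against lamin A/C KO on day 4, Col4a1 was -0.0597 with averaged probe sets, -0.18 with the Gapdh covariate and -0.0272 without the high-ratio arrays. Col6a1 was -0.24 to 0.025 with 1 array left out (sign turned without emerin KO day 4 replicate 2). Groups of 2 or 3 arrays, no label relating arrays to animals, and controls of the lamin A line limit all of these comparisons.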

Other observations

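Genes that bind or take up collagen were counted after injection. Of 11 measured receptors, 6 rose and 1 fell in emerin KO muscle, 8 rose and 1 fell in lamin A/C KO muscle, and 7 rose and 0 fell in control muscle by day 3, when 23.9%, 23.4% and 20.1% of all genes rose and 22.2%, 19.6% and 14.2% fell in the same order. By day 4 the counts were 7 and 1 in emerin KO, 6 and 1 in lamin A/C KO, and 8 and 0 in control muscle, against 23.5%, 21% and 19.5% of all genes that rose and 20.8%, 18.2% and 14.3% that fell. Between emerin KO and control muscle on day 3, Ddr2, a collagen receptor kinase, was higher (0.88) and Itgb1, the beta chain shared by the collagen-binding integrins, was lower (-0.82), and on day 4 Itgb1 was lower (-0.60). Of 13 basement membrane partners, Nid2 (-1.20), Lama2, Lamc1 and Lama4 were lower in emerin KO than in control muscle on day 3, and Lama4 (-0.84), Lamb1 (-0.66) and Lamc1 (-0.60) on day 4. Among all genes 8.92% were lower and 16.3% passed in either direction on day 3, and 3.29% and 5.87% on day 4.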
